A study of Mus musculus with 6 samples.

Results

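In the nucleus accumbens of mice trained with morphine or with saline, 6117 multi-intron retention events were listed in at least 1 but not in all 6 libraries. They made up 4.75% of the 128790 distinct events in the 6 event catalogues and 24.5% of the 24972 distinct intron retention events. An event of this kind is an exon, assembled from the reads of a library, that runs across 2 or more consecutive introns which another assembled transcript of that library removes. Members carried the type code MIR_ON (4741 events) or XMIR_ON (1376 events, whose boundaries the caller matched only approximately). They were chosen by their type code and by the number of libraries that list them. Listings were taken as the same event where type code, gene, chromosome, boundaries and strand were the same, and an event was kept if 1 to 5 libraries listed it. They lay in 2106 of the 15939 genes with any event (13.2%). The number of libraries that list an event was therefore fixed by how the events were chosen and is given below as a description only.

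The morphine group held 3 libraries (morphine 4, 5 and 6) of C57BL/6N mice that received morphine injections in conditioned place preference training, in which an animal learns to link a drug with a place. The saline group held 3 libraries (saline 1, 2 and 3) of C57BL/6N mice that received saline injections in the same training. The labels name no mutation or transgene in either group. The study used 6 mice per group; how they were spread over the libraries, their age, the dose and the number of sessions are not stated. Total RNA of the whole accumbens was sequenced, so the libraries mix all its cell types, and p-values measure the spread between libraries.

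Introns are removed from a transcript while it is made or soon after, and a transcript that keeps one is often held in the nucleus. If it reaches the cytoplasm, a stop codon in the kept intron can mark it for nonsense-mediated decay. Retention is known as a regulated step in neurons, where transcripts that keep introns can be stored in the nucleus and spliced later on a signal. Genes for splicing factors, such as the SR proteins and the Clk kinases that phosphorylate them, are known to control their own output through retained introns. Total RNA also holds unfinished transcripts, which contain introns as well.

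The reference transcripts of GENCODE M21 (mouse build GRCm38) hold the sequence of 1532 of the 8867 distinct kept introns (17.3%), those that lie inside an annotated exon. Of these, 1460 (95.3%) began with GT and ended with AG, 28 began with GC and ended with AG, and 6 ran from AT to AC. The following introns are shown because they are what the events discussed below keep: those of Npas4, Dvl1 and Cope from events listed in every morphine and no saline library, those of Dpp7 from an event listed in every saline and no morphine library, and those of Dvl1, Galt and Tia1 from events listed in 5 libraries. Capitals mark the kept intron and lower case the flanking exon bases, written 5′ to 3′ on the strand of the gene.
Npas4 first kept intron: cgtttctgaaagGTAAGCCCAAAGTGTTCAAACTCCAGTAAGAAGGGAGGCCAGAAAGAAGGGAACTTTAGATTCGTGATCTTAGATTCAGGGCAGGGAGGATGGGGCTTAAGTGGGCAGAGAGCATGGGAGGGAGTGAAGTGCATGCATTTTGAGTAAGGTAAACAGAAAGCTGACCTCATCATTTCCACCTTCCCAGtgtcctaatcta
Npas4 second kept intron, 5′ end: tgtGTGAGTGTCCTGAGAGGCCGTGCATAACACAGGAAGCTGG
Npas4 second kept intron, 3′ end: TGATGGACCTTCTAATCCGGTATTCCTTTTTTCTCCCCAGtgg
Dvl1 first kept intron of the morphine event: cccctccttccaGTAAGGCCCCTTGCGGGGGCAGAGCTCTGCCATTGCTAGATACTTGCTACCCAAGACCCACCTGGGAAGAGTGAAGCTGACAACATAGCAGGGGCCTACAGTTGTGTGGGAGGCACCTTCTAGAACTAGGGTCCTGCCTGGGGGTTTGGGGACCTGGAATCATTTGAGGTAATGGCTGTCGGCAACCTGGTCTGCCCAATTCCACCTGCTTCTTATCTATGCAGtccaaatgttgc
Cope first kept intron, 5′ end: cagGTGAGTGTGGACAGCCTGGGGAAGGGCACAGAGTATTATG
Cope first kept intron, 3′ end: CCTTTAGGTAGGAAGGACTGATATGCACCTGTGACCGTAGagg
Cope second kept intron, 5′ end: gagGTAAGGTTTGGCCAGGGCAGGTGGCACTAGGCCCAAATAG
Cope second kept intron, 3′ end: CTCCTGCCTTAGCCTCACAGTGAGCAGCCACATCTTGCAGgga
Dpp7 first kept intron: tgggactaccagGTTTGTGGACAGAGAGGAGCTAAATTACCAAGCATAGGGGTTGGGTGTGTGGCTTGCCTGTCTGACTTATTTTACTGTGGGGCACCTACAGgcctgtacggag
Dpp7 second kept intron: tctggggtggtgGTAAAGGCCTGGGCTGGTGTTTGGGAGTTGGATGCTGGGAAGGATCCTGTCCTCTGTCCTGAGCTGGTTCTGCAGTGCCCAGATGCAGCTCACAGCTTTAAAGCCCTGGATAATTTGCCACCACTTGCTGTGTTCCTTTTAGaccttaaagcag
Dvl1 first kept intron of the recurrent event: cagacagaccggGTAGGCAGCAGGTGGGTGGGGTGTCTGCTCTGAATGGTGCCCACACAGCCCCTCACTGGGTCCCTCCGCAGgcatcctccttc
Dvl1 second kept intron of the recurrent event: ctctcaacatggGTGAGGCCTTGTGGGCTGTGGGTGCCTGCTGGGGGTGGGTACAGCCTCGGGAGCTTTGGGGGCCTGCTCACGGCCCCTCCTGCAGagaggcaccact
Galt first kept intron: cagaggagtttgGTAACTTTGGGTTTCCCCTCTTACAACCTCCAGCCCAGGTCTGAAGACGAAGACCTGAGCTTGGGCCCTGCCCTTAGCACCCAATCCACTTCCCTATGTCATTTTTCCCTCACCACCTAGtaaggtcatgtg
Galt second kept intron: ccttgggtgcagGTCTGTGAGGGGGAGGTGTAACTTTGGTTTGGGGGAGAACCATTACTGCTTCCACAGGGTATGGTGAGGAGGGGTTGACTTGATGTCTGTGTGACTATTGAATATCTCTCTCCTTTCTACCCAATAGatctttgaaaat
Tia1 first kept intron: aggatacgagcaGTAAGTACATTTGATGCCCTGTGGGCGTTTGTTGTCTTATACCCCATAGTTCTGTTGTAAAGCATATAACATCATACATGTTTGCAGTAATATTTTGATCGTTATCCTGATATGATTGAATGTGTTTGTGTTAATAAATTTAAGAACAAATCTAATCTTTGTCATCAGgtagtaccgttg

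The Npas4 introns lie on the minus strand at chr19:4987888-4988074 and chr19:4987451-4987777, inside the coding sequence. Read on from the exon in the annotated frame, the first gives a TAA stop that ends at its base 4, and the second a TGA that ends at its base 173. The Dvl1 intron of the morphine event (plus strand, chr4:155853759-155853982, 224 bases) gave a TAA ending at base 4. In Cope (plus strand), the intron at chr8:70304697-70305634 (938 bases) gave a TGA ending at base 126, and the one at chr8:70305736-70306498 (763 bases) a TAA ending at base 4. In Dpp7 (minus strand), the first intron at chr2:25353517-25353607 (91 bases) had no stop in frame, and the second at chr2:25353218-25353359 (142 bases) had a TGA ending at base 62. The recurrent Dvl1 introns at chr4:155854660-155854730 (71 bases) and chr4:155854801-155854885 (85 bases) had a TGA ending at base 33 and no stop. Both Galt introns, at chr4:41756562-41756681 and chr4:41756812-41756938 on the plus strand, held a TAA, ending at base 4 and at base 21. The Tia1 intron at chr6:86418933-86419100 (plus strand, 168 bases) had a TGA ending at base 14.

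In all, 1207 introns with a sequence lie within a coding sequence of 1 known frame. Of these, 1064 (88.2%) held a stop codon in frame, and the first one ended at a median of base 38 of the intron (interquartile range 9 to 71.25). The 143 without a stop were short, with a median of 91 bases, and 41 of them had a length that is a multiple of 3. Each intron was read in the frame of its own upstream exon, so the second intron of an event was read as if the first had been removed. Over the 8212 sets of introns that a partner transcript removes, 2687 (32.7%) had a summed length that is a multiple of 3.

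Most members kept the smallest number of introns that the type allows. At most 2 introns were kept by 4291 events (70.1%), 3 by 1270, 4 by 387, 5 by 114 and 6 by 40, while 7 events kept 7, 5 kept 8, 2 kept 9 and 1 kept 10. Where the partner transcripts of an exon removed unequal numbers of introns, as for 973 events, the largest number is counted. The exons spanned 321 to 44982 bases, with a median of 2645 (interquartile range 1355 to 4878). Of the 8867 kept introns, 8159 (92.0%) are annotated introns, and their median length was 690 bases. Protein-coding genes held 6081 of the events.

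The event that kept most introns was in Agbl5, which encodes an enzyme that trims glutamates from tubulin: up to 10 introns over 5861 bases, listed in saline 1 alone. A 9-intron event lay in Ndor1, a flavin-containing oxidoreductase, and was listed in morphine 4 alone. Up to 8 introns were kept in Kansl1l (saline 2 alone), in Fam193a and in Tnrc6a (each in morphine 4 alone). Tnrc6a encodes a scaffold of microRNA silencing. The longest event ran over 44982 bases of Setd5, which encodes a SET-domain chromatin protein, and was listed in morphine 6 alone. It was followed by events in Kansl1l (40448 bases, saline 2), Lrrc7 (38163 bases, morphine 6), Wac (34496 bases, saline 1) and Zfp644 (33147 bases, morphine 6). All of these were listed by a single library.

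Few members are known exons. Only 152 (2.48%) had the boundaries of 1 annotated exon, and for 124 of these the annotation holds that exon in transcripts of the retained_intron class alone. Another 14 belonged to processed transcripts alone, 11 to transcripts marked for nonsense-mediated decay and 4 to a protein-coding transcript, classes that can overlap. The 6117 events came down to 5037 distinct kept exons, 1080 of which were listed under both type codes. Of the 5037, 2807 (55.7%) were also listed as a single retained intron against another partner. Genes that overlap another annotated gene held 4037 members (66.0%); reads of overlapping genes cannot be told apart where strand was not used, and the strand setting is not stated.

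A single library listed 4725 members (77.2%), 2 libraries listed 867, 3 listed 301, 4 listed 128 and 5 listed 96. Per library, 46.4% to 60.4% of its members were listed there alone. For single retained introns listed in 1 to 5 libraries this share was 42.3% to 48.7%. Just outside the rule, 46 multi-intron events were listed in all 6 libraries. The share of events that are 1 annotated exon was 1.57% at 1 library, 4.04% at 2, 6.31% at 3, 7.03% at 4 and 15.6% at 5, against 32.6% of the 46 constant events. The share that kept 3 or more introns was 32.2%, 24.9%, 19.9%, 11.7% and 15.6% at 1 to 5 libraries, and the median span was 2714, 2619, 2409, 2142 and 2008 bases. Events listed in 5 libraries were thus shorter and more often annotated than events listed in 1.

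**Figure D1:**
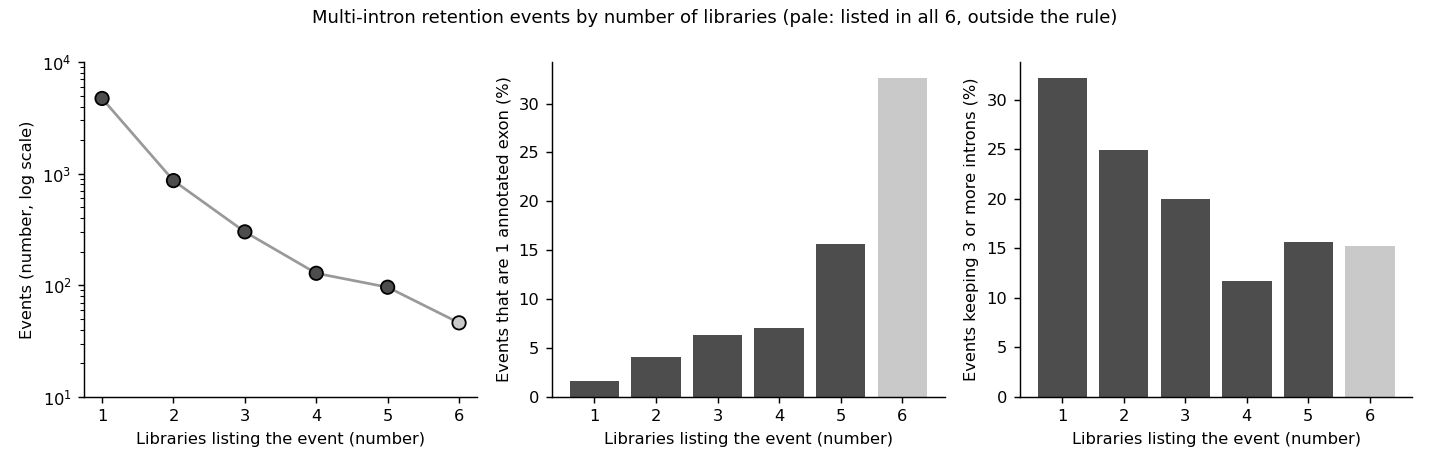
Multi-intron retention events by the number of libraries that list them (x axis), with the number of events on a log scale, the percentage that are 1 annotated exon and the percentage that keep 3 or more introns (y axes). Dark marks are the 6117 events described here, from 4725 at 1 library to 96 at 5, and the pale marks are the 46 events listed in all 6.

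The introns of the blocks were also followed one by one. An intron was matched between libraries through any retention event, whereas a block needs the same 2 boundaries and type. Counting every retention event, single or multiple, 3309 of the 8867 kept introns were kept in 1 library, 2042 in 2, 1356 in 3, 955 in 4, 662 in 5 and 543 in all 6. Of the 4725 members listed in 1 library, 3981 (84.3%) held at least 1 intron that another library kept too, and for 2144 (45.4%) this was so for every intron of the block. Libraries of the same group shared about as much of their members as libraries of different groups. A pair within a group shared 8.39% to 10.4% of its joint events (mean 9.20%, 6 pairs), and a pair across groups 7.94% to 10.3% (mean 9.09%, 9 pairs).

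Among the 96 events listed in 5 libraries, those with the most introns were in genes of varied function. Events in Rbm39 and Tia1 kept the most, up to 4 introns each. The Rbm39 event, in a splicing factor gene at chr2:156172828-156179240 (6413 bases), was listed under XMIR_ON everywhere but in morphine 6; the same exon under MIR_ON was listed in all 6 libraries and is one of the 46 constant events. Tia1, an RNA-binding protein of stress granules, had its event at chr6:86418878-86424420 listed everywhere but in saline 2. The pore subunit gene Cacna1d of the L-type calcium channel kept up to 3 introns over 13018 bases, again in all libraries but saline 2. Up to 3 introns were also kept in Eml5 (a microtubule-associated protein, 6681 bases), Pmm2 (phosphomannomutase, 6010 bases), Ints13 (an Integrator subunit, 4325 bases), Exd2 (an exonuclease, 3497 bases), Thoc1 (a THO subunit for mRNA export, 3394 bases), Nae1 (a subunit of the NEDD8-activating enzyme, 3034 bases) and Dimt1 (a ribosomal RNA methyltransferase, 2200 bases). Shorter 5-library events were the 460-base block of Dvl1, listed everywhere but in saline 2, and the 483-base block of Galt, an enzyme of galactose metabolism, listed everywhere but in saline 3; their introns are shown above. The library that lacked a 5-library event was saline 2 in 26 cases, morphine 5 in 20, saline 3 in 17, saline 1 in 15, morphine 6 in 10 and morphine 4 in 8.

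The first comparison asked whether libraries of morphine-trained mice listed more multi-intron retention events. Morphine 4, 5 and 6 listed 1744, 1328 and 1612 members, and saline 1, 2 and 3 listed 1675, 1038 and 957. The groups overlapped, because saline 1 lay above morphine 5 and 6. The means were 1561 ± 213 in morphine libraries and 1223 ± 393 in saline libraries (SD, n = 3 each), a ratio of 1.28 that did not exceed the spread between libraries (exact two-sided permutation test, p = 0.3, adjusted p = 0.5 over 10 library-level counts; 3 against 3 libraries cannot give a p below 0.1). In bulk tissue, fewer cells of a type and less RNA per cell cannot be told apart. Saline 1, the highest of the saline libraries, was the only one of them above any morphine library. Leaving it out therefore had to end the overlap and raise the ratio, and gives no evidence of a difference. Without saline 1 the saline mean was 997.5 and the ratio was 1.57 (exact permutation p = 0.2, smallest possible 0.1). Every other library left out gave a smaller ratio than this. It was 1.20, 1.37 and 1.26 without morphine 4, 5 and 6, and 1.19 and 1.15 without saline 2 and 3.

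Counts by type code, by block size and by gene overlapped between the groups as well. Events under MIR_ON numbered 1414, 1071 and 1312 in morphine libraries and 1340, 837 and 766 in saline libraries (exact permutation p = 0.3). Events under XMIR_ON numbered 330, 257 and 300 in morphine libraries and 335, 201 and 191 in saline libraries (exact permutation p = 0.4). Without saline 1 the ratios were 1.58 for MIR_ON and 1.51 for XMIR_ON. Blocks of 2 introns numbered 1275, 965 and 1174 in morphine libraries and 1158, 769 and 746 in saline libraries (exact permutation p = 0.2). Blocks of 3 or more numbered 469, 363 and 438 in morphine libraries, against 517, 269 and 211 in saline libraries (exact permutation p = 0.4), so saline 1 held the most of any library. The genes with a member numbered 982, 775 and 925 in morphine libraries and 954, 644 and 626 in saline libraries (exact permutation p = 0.3). Adjusted p was 0.5 for all 5 of these counts. Members that are 1 annotated exon had another order, with 42, 55 and 72 in morphine libraries and 56, 35 and 52 in saline libraries (exact permutation p = 0.5, adjusted p = 0.556).

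The order of the libraries followed that of all intron retention. Morphine libraries listed 7523, 6361 and 7018 retention events of any kind, and saline libraries 7425, 5074 and 5010, while all distinct events numbered 57981, 56546 and 56416 in morphine libraries and 58007, 54641 and 57132 in saline libraries. As a share of retention events, members made up 23.2%, 20.9% and 23.0% in morphine libraries and 22.6%, 20.5% and 19.1% in saline libraries (exact permutation p = 0.2, adjusted p = 0.5). On this scale the ratio was 1.08. The part that the total of retention events has in the member counts was not tested beyond this scaling.

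**Figure D2:**
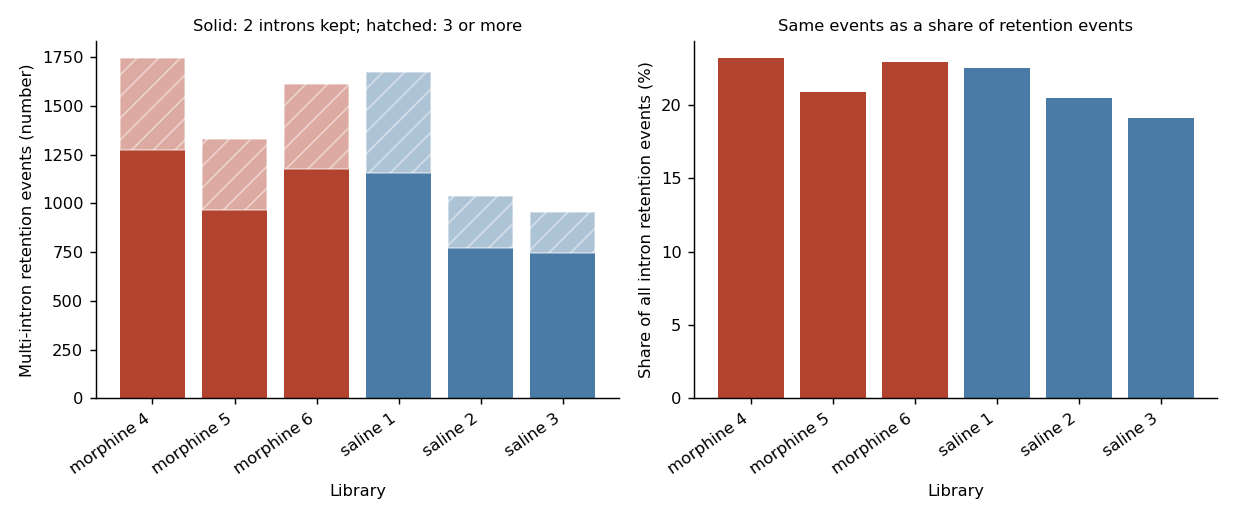
Number of multi-intron retention events per library (left; solid bars are blocks of 2 introns, hatched bars blocks of 3 or more) and the same events as a percentage of all intron retention events of the library (right), morphine libraries in red and saline libraries in blue. The tallest bar is morphine 4 with 1744 events, and saline 1 with 1675 stands near it while saline 2 and 3 have 1038 and 957.

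The second comparison asked which blocks separated the groups fully. Of the 6117 members, 19 (0.311%) were listed in every morphine and no saline library, and 11 (0.180%) in every saline and no morphine library. Over all 128790 events of the catalogues these shares were 0.321% and 0.345%, and over the 101889 events listed in 1 to 5 libraries 0.405% and 0.436%. Among the 18478 single retained introns listed in 1 to 5 libraries they were 0.525% and 0.249%. Both counts of members thus lay at or below the share of all events. A looser rule that ignores 1 library gave larger numbers: the morphine count was 72, 104 and 83 without morphine 4, 5 and 6, and 32, 28 and 28 without saline 1, 2 and 3. The saline count was 23, 18 and 24 without morphine 4, 5 and 6, and 43, 69 and 61 without saline 1, 2 and 3. No share of all events is given under this looser rule, so these counts show nothing particular to members.

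For 3 of the 19 morphine events, no intron of the block was kept in any saline library, by any other retention event. One was in Cope, the epsilon subunit of the COPI vesicle coat, at chr8:70304634-70306651, which has the boundaries of an annotated exon of the retained_intron class. Another was in Dvl1, a Dishevelled protein that relays Wnt signals, at chr4:155853637-155854468, with introns of 224 and 243 bases. The third was in Srpk2, a kinase that phosphorylates SR splicing factors, at chr5:23525496-23528062, with introns of 1044 to 1108 bases. In these genes the listing was 1, 1 and 1 in morphine libraries and 0, 0 and 0 in saline libraries both for the block and for its introns.

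The other 16 morphine events shared introns with saline libraries. For 9 of them every intron of the block was kept somewhere in the saline group, and for 7 only some were. In Arnt, the dimer partner of hypoxia-inducible factors and of the dioxin receptor, and in Cables2, a substrate of Cdk5 and Abl, all 3 saline libraries kept every intron of the block in other events. The 4-intron block of Exosc8, a subunit of the RNA exosome, was kept whole by other events in saline 1 and 3 and in part in saline 2. In the saline group, saline 1 alone kept both introns of the Agbl5 block. The same held for Fubp3, a single-strand nucleic acid binding protein. The block of Csf2ra, the alpha chain of the receptor for GM-CSF, held 4 introns of 102 to 159 bases, of which saline 1 and 3 kept some. Ccdc134 and Ccdc84 completed the events with 3 or more introns, each with every intron kept by other events in the saline group. The remaining morphine events were in Gtpbp2, Hsf2, Npas4, Odf2, Polr3a, Tbc1d17, Tmem67 and Ulk3.

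Among the 11 saline events, 2 had no intron kept in a morphine library. One was in Nfxl1, a zinc finger gene, at chr5:72516212-72518299, with introns of 760 and 1082 bases. The other was in Nmt2, an enzyme that attaches myristate to proteins, at chr2:3304812-3309611, with up to 3 introns. For 8 of the 11 every intron was kept somewhere in the morphine group. Dpp7, a dipeptidyl peptidase, and Idua, the lysosomal alpha-L-iduronidase, had every intron kept by other events in all 3 morphine libraries. The Y-linked initiation factor gene Eif2s3y gave 2 of the 11, the same exon under both codes, and morphine 6 kept all its introns in other events. The events of Fam149b, Kmt2e, Raph1 and Zfp326 were kept whole in at least 1 morphine library, and that of Nsmaf, an adaptor of sphingomyelinase signalling, in part in morphine 4.

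**Figure D3:**
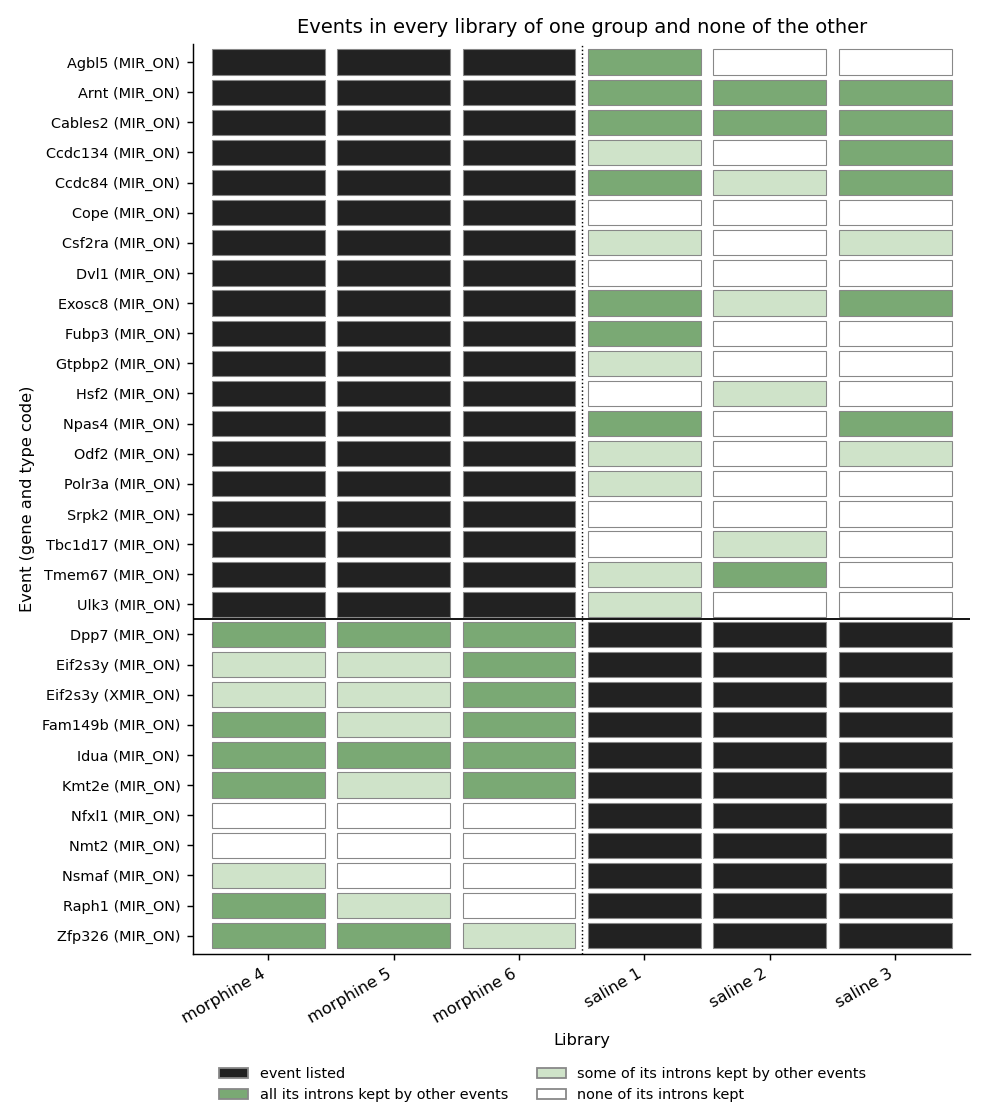
The 30 events listed in every library of one group and in none of the other, 1 row each with its gene and type code, and the libraries in columns, morphine to the left of saline. Black marks a listed event, dark green a library in which other retention events keep all its introns, pale green some and white none; Cope, Dvl1 and Srpk2 are white in all 3 saline libraries, and Nfxl1 and Nmt2 in all 3 morphine libraries.

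Counted by intron instead of by block, more introns were kept in morphine libraries alone. Of the 8867 introns of the members, 116 in 92 genes (1.31%) were kept by a retention event of any kind in every morphine and no saline library, and 32 in 27 genes (0.361%) in every saline and no morphine library. All 18444 introns kept by any retention event, which include those of the members, gave 176 (0.954%) and 48 (0.260%). The higher morphine count is therefore not particular to members. The morphine count was 286, 336 and 264 without morphine 4, 5 and 6, and 252 without saline 1. The saline count was 98, 68 and 87 without morphine 4, 5 and 6, and 101, 177 and 159 without saline 1, 2 and 3. The share of all kept introns is not given for these looser counts. Saline 2 and 3 listed the fewest retention events of the 6 libraries, and the part this has in the counts was not tested.

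Npas4, a transcription factor that neurons switch on upon activity, held 5 members on chromosome 19. Its annotated block at chr19:4987315-4988348, which keeps the introns shown above, was listed in every morphine library and no saline library. Saline 1 and 3 kept the same introns inside a longer block at chr19:4985755-4988348, of up to 3 introns, that no morphine library listed. Saline 2 had no member in Npas4. Counted per library, morphine 4, 5 and 6 listed 1, 2 and 3 members and saline 1, 2 and 3 listed 1, 0 and 1, so the groups met at 1 (exact permutation p = 0.3, adjusted p = 1).

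Members were spread unevenly over their genes. Of the 2106 genes 972 (46.2%) had a single member, while 94 genes with 10 or more held 1415 members (23.1%). Pkd1, which encodes the large membrane protein polycystin-1, had the most, 56, with 15, 20 and 5 in morphine libraries and 19, 12 and 6 in saline libraries. They kept 34 distinct introns between them, so that neighbouring blocks reuse the same introns, and 5 of these introns were kept in all 6 libraries. Kmt2e, a chromatin regulator with a SET domain, had 46 members, with 7, 3 and 13 in morphine libraries and 12, 22 and 4 in saline libraries, over 22 distinct introns. In both genes the groups overlapped widely.

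Setd5 had 43 members, with 21, 3 and 18 in morphine libraries and 0, 7 and 1 in saline libraries. Morphine 4 and 6 stood far above the rest, but morphine 5 lay below saline 2 (exact permutation p = 0.2, adjusted p = 1 over 2106 genes). Tnrc6a had 42 members, with 15, 4 and 15 in morphine libraries and 7, 2 and 6 in saline libraries. The next genes were Phf20l1, a Tudor and PHD finger protein (27 members), Kansl1l (25), Ndor1 (24), Sfi1, a centrin-binding protein of the centrosome (23), Ccnl1, a cyclin linked to splicing (23), and Fam193a (22). Among these, Ccnl1 was the most even, with 6, 7 and 8 in morphine libraries and 5, 4 and 7 in saline libraries.

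Gene by gene, no difference passed an adjusted test. The exact permutation test found 0 of 2106 genes at an unadjusted p under 0.05, which 3 against 3 libraries cannot reach, and the smallest adjusted p was 1. In 41 genes (1.95%) every morphine library listed more members than every saline library, and in 10 genes (0.475%) every morphine library listed fewer. Over all events the shares among 15939 genes were 1.55% and 1.35%, and over all retention events among 4907 genes 2.83% and 0.795%. With the counts divided by the library total of members, 44 genes were higher and 27 lower. No share of all genes is given on this scale, so these counts cannot be set against the shares above. Without morphine 4, 5 or 6, or saline 1, the number of higher genes was 88, 113, 89 and 78. The number of lower genes was 28, 20 and 30 without morphine 4, 5 and 6, and 29, 46 and 39 without saline 1, 2 and 3. The share of all genes is not given for these looser counts.

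Among the 41 genes with more members in every morphine library, the largest difference was in Dgat1, the enzyme of the last step of triglyceride synthesis. Morphine 4, 5 and 6 listed 6, 7 and 5 members of Dgat1 and saline 1, 2 and 3 listed 1, 1 and 0 (means 6 ± 1.0 and 0.667 ± 0.577, SD, n = 3 each; exact permutation p = 0.1, adjusted p = 1). Its 15 events crowd into chr15:76502492-76506653, and 13 of them were listed in 1 library. None of its 16 kept introns was kept in all 6 libraries. In Rgs11, a regulator of G protein signalling, morphine libraries listed 3, 11 and 3 members and saline libraries 1, 1 and 2. In Krit1, a protein of endothelial cell junctions, the counts were 6, 4 and 6 in morphine libraries and 2, 0 and 2 in saline libraries. Myef2, a nucleic acid binding repressor, had 2, 3 and 8 in morphine libraries and 1, 0 and 1 in saline libraries, and Fubp1, a relative of Fubp3, had 1, 2 and 8 in morphine libraries and 0 in each saline library. Much of the difference in Rgs11 came from morphine 5, and in Myef2 and Fubp1 from morphine 6.

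Among the 10 genes with fewer members in every morphine library, these 5 came first by the size of the difference, Ifrd2 tied with others. Rpain, which carries replication protein A into the nucleus, had 1, 1 and 0 members in morphine libraries and 2, 4 and 5 in saline libraries. Ankrd16 had 1 member in each morphine library and 6, 3 and 2 in saline libraries. Tmem131 had 0 in each morphine library and 3, 1 and 3 in saline libraries, and Ifrd2 had 1, 0 and 1 in morphine libraries and 3, 2 and 2 in saline libraries. The gene with the identifier ENSMUSG00000098930 had 1 in each morphine library and 4, 2 and 4 in saline libraries. The exact permutation p was 0.1 for each of these, and the adjusted p was 1.

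**Figure D4:**
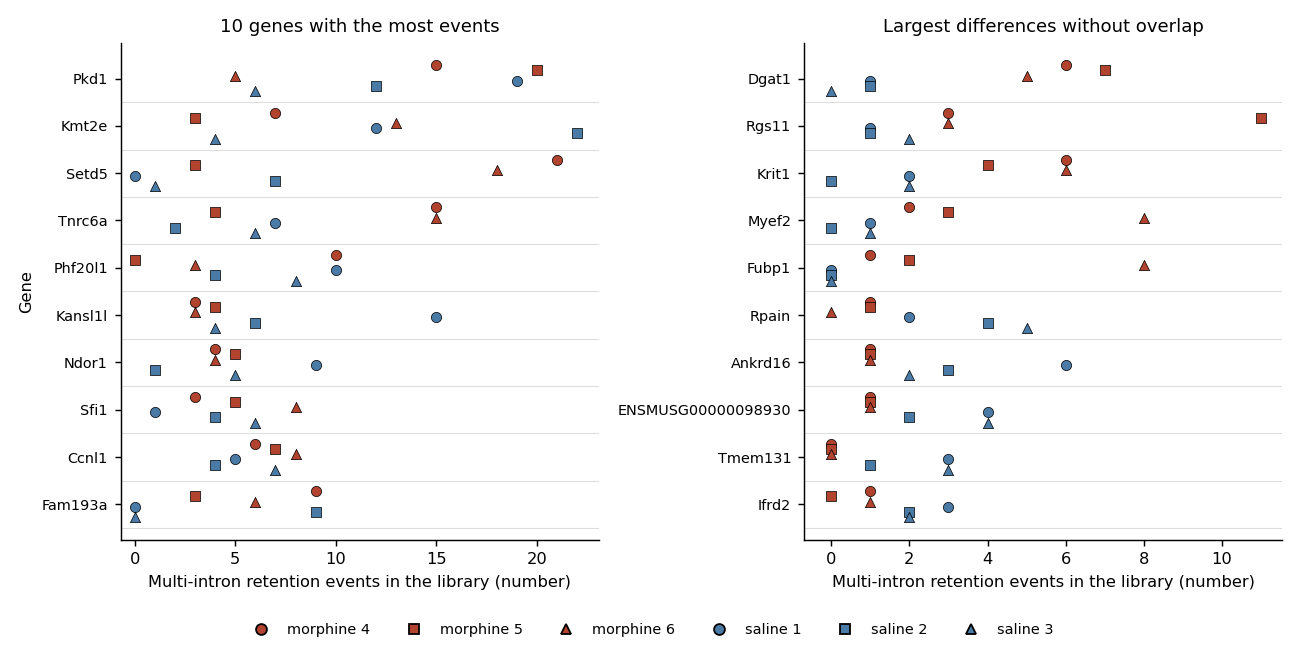
Members per library (x axis, number) in the 10 genes with the most members (left) and in the genes with the largest differences among those whose groups do not overlap (right), with 1 mark per library, morphine in red and saline in blue. In Setd5 morphine 4 and 6 lie at 21 and 18 and morphine 5 at 3, while in Dgat1 the morphine libraries lie at 5 to 7 and the saline libraries at 0 or 1.

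Members were then counted in lists of genes by function, which were chosen with earlier results of these data known and are described beside the 13.2% of all genes with a member; no difference between lists was tested. Of 60 genes of the spliceosome and RNA-binding proteins, 29 (48.3%) had a member, and Tia1 had 11. Of 34 chromatin enzymes, 16 (47.1%) had one, led by Kmt2e with 46 and Tet2, an oxidase of methylated cytosine, with 10. Of 20 SR proteins and their kinases, 9 (45%) had one, led by Clk2 with 12 and the SR protein kinase gene Srpk3 with 6. Members of this last list summed to 10, 7 and 8 in morphine libraries and 11, 11 and 11 in saline libraries, so every saline library lay above every morphine library. No other list separated in this way, the sums were not tested, and 3 against 3 libraries allow only 20 splits. In this list of SR proteins and kinases, Srpk2 was the only gene whose groups did not overlap, with 1 member in each morphine library and 0 in each saline library.

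In Tia1 the blocks recur at 1 place. The block at chr6:86418878-86420411, an annotated retained_intron exon whose first kept intron is shown above, was listed in every library but saline 3. Counting all 11 Tia1 members, morphine libraries listed 3, 5 and 3 and saline libraries 4, 5 and 4. Of its 11 kept introns, 5 were kept in all 6 libraries. Clk2 had its members in 2 stretches of the gene, with 4, 2 and 1 in morphine libraries and 5, 4 and 2 in saline libraries. A block of Clk3, another kinase of SR proteins, at chr9:57758284-57761040 was listed everywhere but in morphine 4 and is an annotated retained_intron exon; Clk3 was named after its values were seen.

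Clock genes followed, with 8 of 21 (38.1%). Per3, a repressor of the clock, had 11 members, with 5, 2 and 5 in morphine libraries and 2, 2 and 1 in saline libraries, so the groups met at 2. Bhlhe41, another repressor, had 5. Of 24 postsynaptic scaffold genes 7 (29.2%) had a member, Shank1 and Arhgef2 with 3 each. Of 25 calcium channel and CaM kinase genes 7 (28%) had one, led by Cacna1b, the N-type pore subunit, with 12, all in 1 library each, and Cacna1a, the P/Q-type pore subunit, with 6. Of 21 immediate early genes listed, 4 (19.0%) had one, Npas4 with 5 and Per1, also a clock gene, with 4.

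The other lists were as follows. Of 20 aminoacyl-tRNA synthetase genes 3 (15%) had one, Farsa with 5 and Cars with 1. Of 24 glutamate receptor genes listed, 2 (8.33%) had one, Gria2, an AMPA receptor subunit whose block was listed in all libraries but morphine 5, and Grik1, a kainate receptor subunit. Of 31 genes of cAMP and DARPP-32 signalling, 2 (6.45%) had one, the adenylyl cyclase gene Adcy6 with 3 and the stimulatory G protein gene Gnas with 1. Of 20 GABA genes only Gabra2, a GABA-A receptor subunit, had one (5%). None of the 17 opioid and dopamine genes listed and none of 30 cytosolic ribosomal protein genes had a member.

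The markers of the tissue and of its other cells had almost no members. All 16 medium spiny neuron markers had an event of some kind in all 6 libraries, and none had a member. The same listing in all 6 libraries held for all 8 interneuron, 6 astrocyte, 7 oligodendrocyte, 6 microglia and 5 ependyma markers, of which Mog and Ccdc39 had a member. Of 6 cortical glutamatergic neuron markers 5 were listed in all 6 libraries, and of 5 choroid plexus markers 2. Of 5 endothelial markers 4 were listed in all 6 libraries, and Cldn5 was listed in no library. Listing shows that a transcript was assembled and gives no level.

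Members were then set against single retained introns, the 18478 events in which 1 intron is kept and that were also listed in 1 to 5 libraries. The median kept intron of a member was 810, 555 and 706.5 bases long in morphine libraries and 661, 758 and 590 in saline libraries. That of a single retained intron was 892.5, 676.5 and 815 bases in morphine libraries and 776, 842 and 687.5 in saline libraries. Members kept shorter introns in 6 of 6 libraries, with a difference of -101.5 ± 16.2 bases (SD over 6 libraries, exact sign-flip permutation p = 0.031, adjusted p = 0.031 over 3 comparisons). Between groups the medians did not differ beyond the spread, at 690.5 ± 128 bases in morphine libraries and 669.7 ± 84.3 in saline libraries (SD, n = 3 each, exact permutation p = 0.8).

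Members were also less often known exons. The share with the boundaries of 1 annotated exon was 2.41%, 4.14% and 4.47% in morphine libraries and 3.34%, 3.37% and 5.43% in saline libraries. For single retained introns it was 8.53%, 9.73% and 9.41% in morphine libraries and 8.32%, 8.99% and 10.8% in saline libraries. The difference of -5.44 ± 0.446 percentage points had the same sign in 6 of 6 libraries (SD over 6 libraries, exact sign-flip permutation p = 0.031, adjusted p = 0.031). Position along the gene was compared as well. On a scale from 0 at the gene's start to 1 at its end, the median centre of a member lay at 0.628 and that of a single retained intron at 0.644, a difference of -0.0157 ± 0.0136 with the same sign in 6 of 6 libraries (exact sign-flip permutation p = 0.031, adjusted p = 0.031). Without saline 1 this last difference was -0.0105. In these 3 comparisons the exact p is the smallest that 6 libraries can give, and the libraries share part of their events. The compared kinds also share exons. Of the 5037 kept exons of members, 2807 (55.7%) were listed as a single retained intron too, in any number of libraries.

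**Figure D5:**
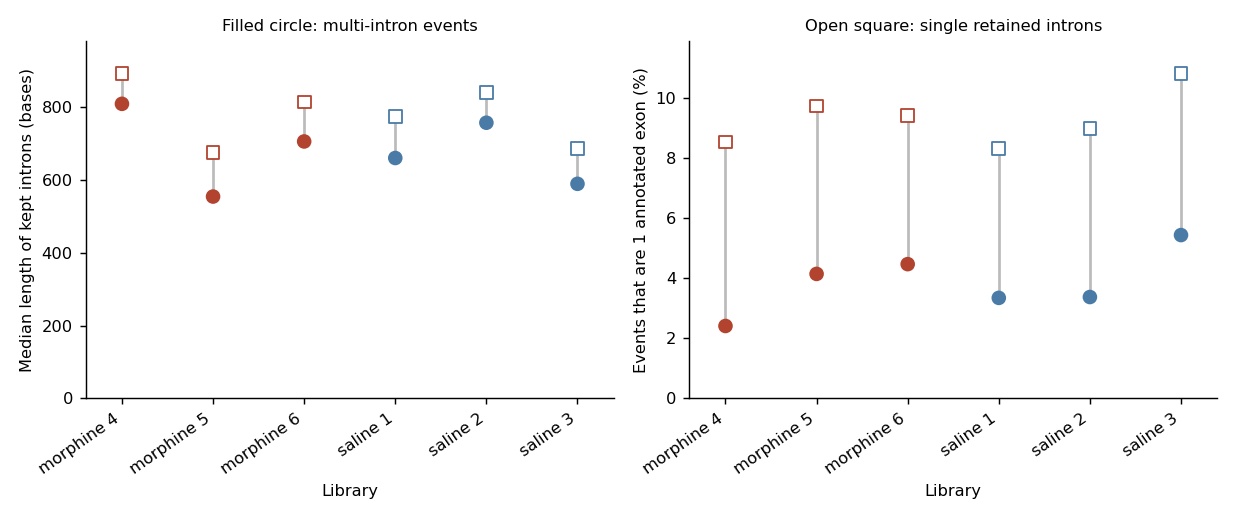
Median length of kept introns in bases (left) and percentage of events that are 1 annotated exon (right) in each library, morphine in red and saline in blue, with filled circles for multi-intron events and open squares for single retained introns. The circle lies below the square in all 6 libraries of both plots.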

How the data were processed

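RNA-seq libraries of mouse nucleus accumbens (3 morphine, 3 saline) were analysed from the authors' deposited event catalogues, 1 per library. Per the file headers, the catalogues give each event's type, gene, chromosome, positions, pattern and strand, and the measure used here is whether an event is listed. The deposited column headed fpkm holds whole numbers from -24 to 0, so it is no FPKM value, and it was not used. The assembler, the event caller, their settings, the build and the depth: not given in the sources used here. Positions fall on exons of GENCODE M21 (GRCm38).

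A row coded ON gives the kept exon alone, so the introns kept were read from its OFF partner row. Counts were compared with exact two-sided permutation tests over the 20 splits of 6 libraries, and members with single retained introns by exact sign-flip tests over libraries, with Benjamini-Hochberg adjustment (Python 3.11.15, numpy 2.4.6, pandas 2.3.3, scipy 1.17.1, matplotlib 3.10.9); the tests were tried on simulated data. Intron sequences came from GENCODE M21 transcripts.

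The members, gene lists and tests were chosen with earlier results of these data known. Genes are named where a member was listed in all libraries of 1 group and none of the other (10 per direction with most introns), by most members (10 genes), most introns or longest span (5 each), listing in 5 libraries (10), largest difference without overlap (5 per direction) and as the 2 leading genes of each list; 1 gene under this rule is not reported here. Clk3, Galt, Mog, Ccdc39, Cldn5, Gtpbp2, Hsf2, Odf2, Polr3a, Srpk2, Tbc1d17, Tmem67 and Ulk3 were named after their values were seen. Gene identifiers matched the annotation for 2093 of 2106 genes. Alternatives left out a library, events or genes, or scaled the counts.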

Additional observations from a re-analysis of the deposited data

How the results depend on the processing

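Of 138 recomputed values, 33 were counts without a test that moved by more than 1.5 times, 19 were tests that lost their threshold and 1 was a difference that reversed; of the other 85, those with a test kept their direction and their side of the threshold, though the differences in library counts changed in size, and counts without a test stayed within 1.5 times. Members per library were higher in morphine libraries under all 16 alternatives, with ratios of 1.08 to 1.57 and exact permutation p of 0.2 to 0.6; MIR_ON events gave 1.09 to 1.58 and genes 1.01 to 1.41. Counting the events listed in all 6 libraries too adds the same number to each library. That alternative could therefore not change the differences in event counts. XMIR_ON events were higher in 15 of 16, and with annotated exons alone the difference reversed to -2 events (exact permutation p = 0.5); the cause was not tested. Leaving out a library in turn gave differences of 205 to 564 members, 177 to 464 MIR_ON events, 27.7 to 99.7 XMIR_ON events and 95.0 to 259 genes. It gave 28 to 104 events in every morphine and no saline library and 18 to 69 in the other direction, 58 to 113 genes higher and 20 to 46 lower, and 166 to 336 introns kept in morphine libraries alone and 68 to 177 in saline libraries alone, since a group of 2 libraries is a looser rule. Shares over all events, genes or introns are not given under that rule. With 3 or more introns kept, 4 events were in every morphine and no saline library and 3 the reverse. With counts divided by the library total, 27 genes were lower. Shares over all events or genes are not given here either. Against single retained introns, leaving out a library gave -105.3 to -97.5 bases, -5.54 to -5.30 percentage points and -0.0184 to -0.0105 of gene length; 5 libraries cannot give an exact p below 0.0625. With exact-boundary codes alone the difference in position was -0.0155 (exact sign-flip permutation p = 0.0625). The alternatives without chromosome Y and patch scaffolds, with annotated introns alone, and all those for annotated share, position and intron counts were chosen after seeing the data. The planned comparison of GC content and the alternative of GT-AG introns alone were not run, because only 17.3% of kept introns had a sequence, under the 80% that such a check needs. No paired analysis was possible because the replicate numbers, 4 to 6 in morphine and 1 to 3 in saline, are not shared between the groups.

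With no read counts, depth is unknown, and an event that is not listed is not shown to be absent from the tissue. Blocks of 1 gene share introns and are not independent.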
